A study of Homo sapiens with 6 samples.

Results

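The HLA class I antigen presentation genes described here were HLA-B, HLA-C, HLA-E, B2M, TAP1, TAP2, TAPBP, NLRC5 and PSMB9. These 9 genes were taken by symbol from the 58735 genes of the count table, and each symbol matched 1 identifier. All 9 passed the filter on low counts, which 15078 genes passed.

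The mRNA data came from Meg-01, an established human megakaryoblastic cell line, in 3 libraries of untreated control cells and 3 libraries of cells given 500 µM sodium propionate (C3) for 48 h. Propionate, a short-chain fatty acid, is a product of bacterial fermentation in the gut. The 48 h stands in the labels of the C3 samples, whereas the study's methods also name a shorter incubation. No culture time is given in the labels of the control samples. The libraries of a group are called technical replicates in the study, so the p-values measure the spread between these libraries and need not cover the variation between independent cultures.

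HLA class I molecules hold short peptides from inside the cell on its surface, where CD8 T cells and NK cells read them. The peptides are cut by the proteasome, whose inducible form carries PSMB9, and are pumped into the endoplasmic reticulum by the TAP1 and TAP2 transporter. There tapasin (TAPBP) helps to load them onto a heavy chain paired with the light chain B2M, and NLRC5 is a transcriptional co-activator of many of these genes. Megakaryocytes and platelets are known to carry class I molecules.

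The genes lie in the MHC region of chromosome 6, apart from B2M on chromosome 15 and NLRC5 on chromosome 16 (GRCh38, GENCODE release 44). HLA-B (ENSG00000234745) spans chr6:31353872-31367067, HLA-C (ENSG00000204525) chr6:31268749-31272130 and TAPBP (ENSG00000231925) chr6:33299694-33314284, all on the minus strand. HLA-E (ENSG00000204592) spans chr6:30489509-30494194 on the plus strand. TAP1 (ENSG00000168394) at chr6:32845209-32853816 and TAP2 (ENSG00000204267) at chr6:32821833-32838739 are on the minus strand, and PSMB9 (ENSG00000240065) at chr6:32844136-32859851 is on the plus strand. B2M (ENSG00000166710) is at chr15:44711358-44718851 and NLRC5 (ENSG00000140853) at chr16:56989485-57083531, both on the plus strand.

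The promoters of 4 members are shown because they belong to the members whose counts are compared most closely: the paired heavy chains HLA-B and HLA-C, the light chain B2M and TAPBP. The windows of 300 bases run from 250 bases before to 50 bases after the RefSeq start site (GRCh38.p14) and are written on the strand of the gene. Capitals mark matches, on either strand, to CCAAT (the letters of a Y box), TGACG (the core letters of a cAMP response element), GAAANNGAA (letters of an interferon-stimulated response element) or GGGGANTCC (letters of a kappa B site). Matches may overlap, as do both GGGGANTCC matches of HLA-B, which lie on opposite strands, and both GAAANNGAA matches of B2M and of TAPBP.
HLA-B, chr6:31357130-31357429, minus strand: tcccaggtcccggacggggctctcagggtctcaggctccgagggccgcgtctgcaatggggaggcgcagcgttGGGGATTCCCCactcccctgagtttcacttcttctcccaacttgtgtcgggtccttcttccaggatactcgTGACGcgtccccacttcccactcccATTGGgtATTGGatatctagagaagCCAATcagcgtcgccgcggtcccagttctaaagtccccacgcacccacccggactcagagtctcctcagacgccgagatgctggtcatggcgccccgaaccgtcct
HLA-C, chr6:31272043-31272342, minus strand: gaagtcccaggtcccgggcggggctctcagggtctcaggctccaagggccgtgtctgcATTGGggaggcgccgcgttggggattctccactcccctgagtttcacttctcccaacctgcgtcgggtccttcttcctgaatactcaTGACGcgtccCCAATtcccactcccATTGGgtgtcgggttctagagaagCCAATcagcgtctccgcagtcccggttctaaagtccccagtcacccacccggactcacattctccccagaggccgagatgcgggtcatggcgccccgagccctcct
B2M, chr15:44711267-44711566, plus strand: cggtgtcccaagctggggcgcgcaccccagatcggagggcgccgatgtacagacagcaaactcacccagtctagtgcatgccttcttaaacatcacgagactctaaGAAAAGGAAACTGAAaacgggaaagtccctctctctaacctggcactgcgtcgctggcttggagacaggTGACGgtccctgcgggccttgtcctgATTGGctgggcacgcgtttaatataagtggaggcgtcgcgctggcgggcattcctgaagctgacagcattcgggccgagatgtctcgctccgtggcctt
TAPBP, chr6:33314029-33314328, minus strand: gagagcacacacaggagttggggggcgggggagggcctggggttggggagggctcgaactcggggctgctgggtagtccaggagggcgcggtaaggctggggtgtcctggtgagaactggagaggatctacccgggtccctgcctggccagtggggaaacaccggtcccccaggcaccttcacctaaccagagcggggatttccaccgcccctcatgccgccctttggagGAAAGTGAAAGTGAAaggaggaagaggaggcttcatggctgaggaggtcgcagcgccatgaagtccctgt

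In 269 of 296 aligned bases (90.9%) the HLA-B and HLA-C windows were identical. Both held TGACG, at -106 in HLA-B and -105 in HLA-C from the start site, and CCAAT at -56. The letters GGGGANTCC were found in the HLA-B window, with first bases at -177 and -175, and not in the HLA-C window. GAAANNGAA was found in the B2M window at -144 and -138, further from the start site than in the TAPBP window, where it lay at -20 and -14. Of 35116 RefSeq windows of this length, 34.6% held CCAAT, 24.6% TGACG, 8.11% GAAANNGAA and 1.53% GGGGANTCC. At least 3 of the 4 kinds were in 0.76% of windows, and HLA-B and B2M each had 3. HLA-C, TAP2, PSMB9 and the TAP1 window at chr6:32853655-32853954 each had 2, and TAPBP had 1. These shares are a description, and no test was run on them. TAP1 and PSMB9 start on opposite strands 488 bases apart, and GAAANNGAA was in the TAP1 window at that start and not in that of PSMB9. A second TAP1 window, at chr6:32852712-32853011, held 0 of the 4 kinds. Windows were at hand for 7 of the 9 members, not for HLA-E and NLRC5. A match describes letters only, and binding was not measured.

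After C3, HLA-B, HLA-C and HLA-E mRNA rose and TAPBP mRNA fell, whereas TAP1, TAP2, PSMB9, NLRC5 and B2M did not pass the test. Thus 3 of the 9 genes passed higher (33.3%) and 1 passed lower (11.1%) at an adjusted p below 0.05 in edgeR's quasi-likelihood test. Of all genes tested, 11% passed higher and 8.77% lower. With the study's gates for a DEG, an adjusted p below 0.01 and a change of over 1.3-fold, HLA-B was the 1 gene called higher and 0 were called lower, where 5.05% and 1.47% of all tested genes were called. C3 libraries lay above every control library for HLA-B, HLA-C, HLA-E and NLRC5, 4 of 9, and below every control library for B2M and TAPBP, 2 of 9. Among all tested genes 17.5% had C3 libraries wholly above and 16.9% wholly below. The median log2 fold change of the 9 genes was 0.16, beside 0.002 over all genes tested. It was 0.097 without control replicate 3, and 0.085 without C3 replicate 1 as well. Their summed normalised counts were 21850 to 22700 in control and 21820 to 22810 in C3 libraries. Normalised counts are counts scaled to a common library size.

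The first group of genes encodes heavy chains. HLA-B, a classical heavy chain that presents peptides to CD8 T cells, was at 1297, 1529.1 and 1541.5 normalised counts in control libraries and at 2239.9, 2006.9 and 2027.2 in C3 libraries. The lowest C3 library was well above the highest control library. The mean went from 1456 ± 138 to 2091 ± 129 (SD, n = 3 each). This is a 1.44-fold rise, with a log2 fold change of 0.52 (SE 0.071, 95% interval 0.38 to 0.67, adjusted p = 8.31e-06). HLA-B ranked 155 by p-value among all genes tested, the first of the 9. It passed the DEG gates under 14 of 14 alternative settings, with log2 fold changes of 0.46 to 0.60.

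HLA-C, a classical heavy chain that is also a ligand of NK cell receptors, was at 1554.7, 1610.8 and 1487.8 normalised counts in control and 1972.4, 1785.8 and 1777.8 in C3 libraries. The groups did not overlap, and C3 replicate 1 was the highest. HLA-C rose 1.19-fold, from 1551 ± 61.6 to 1845 ± 110 (SD, n = 3 each), with a log2 fold change of 0.25 (SE 0.065, 95% interval 0.12 to 0.38, adjusted p = 0.00791). It passed the test under all 14 alternatives and the DEG gates under 0 of them.

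HLA-E, a non-classical heavy chain read by the NK cell receptor pair CD94 and NKG2A, was at 4273.1, 4190.8 and 4050.2 normalised counts in control and 5441.5, 5013 and 4960.1 in C3 libraries. Here too every C3 library was above every control library, and replicate 1 was again the highest of the C3 libraries. The mean rose 1.23-fold from 4171 ± 113 to 5138 ± 264 (SD, n = 3 each), with a log2 fold change of 0.30 (SE 0.062, 95% interval 0.17 to 0.43, adjusted p = 0.00113). HLA-E also passed the test, but not the fold gate, under all 14 alternatives.

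Of the other heavy chains read, HLA-F was at 54.8 ± 3.41 and 74.2 ± 6.37 normalised counts (adjusted p = 0.106). HLA-G had 0 counts in all 6 libraries, where 3 counts, the limit that a count of 0 allows, correspond to 0.126 to 0.192 CPM (counts scaled to a fixed library total) by library. That limit covers counting error only.

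Summed over HLA-B and HLA-C, normalised counts were 2851.7 to 3139.9 in control and 3792.8 to 4212.3 in C3 libraries, a ratio of means of 1.31. With HLA-E added, the sums were 7079.5 to 7330.7 and 8765 to 9653.9, a ratio of 1.26. A sum does not depend on how reads were divided between the genes in it, and no test was run on these sums. Of the counts of these 3 heavy chains, HLA-B took 20.3 ± 1.85% in control and 23 ± 0.219% in C3 libraries. The share of HLA-C was 21.6 ± 0.515% and 20.3 ± 0.0866%, and that of HLA-E 58.1 ± 1.61% and 56.6 ± 0.283%. In every C3 library the share of HLA-B was higher, and those of HLA-C and HLA-E were lower, than in any control library.

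Ratios within a library do not depend on the scaling between libraries. The log2 ratio of HLA-B to HLA-C counts was -0.26, -0.075 and 0.051 in control and 0.18, 0.17 and 0.19 in C3 libraries. C3 libraries were all higher and close together, whereas control libraries were spread. The difference of 0.28 had an exact two-sided permutation p = 0.1, the smallest that 3 against 3 libraries can give. It was 0.192 without control replicate 1 and 0.349 without control replicate 3.

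**Figure D1:**
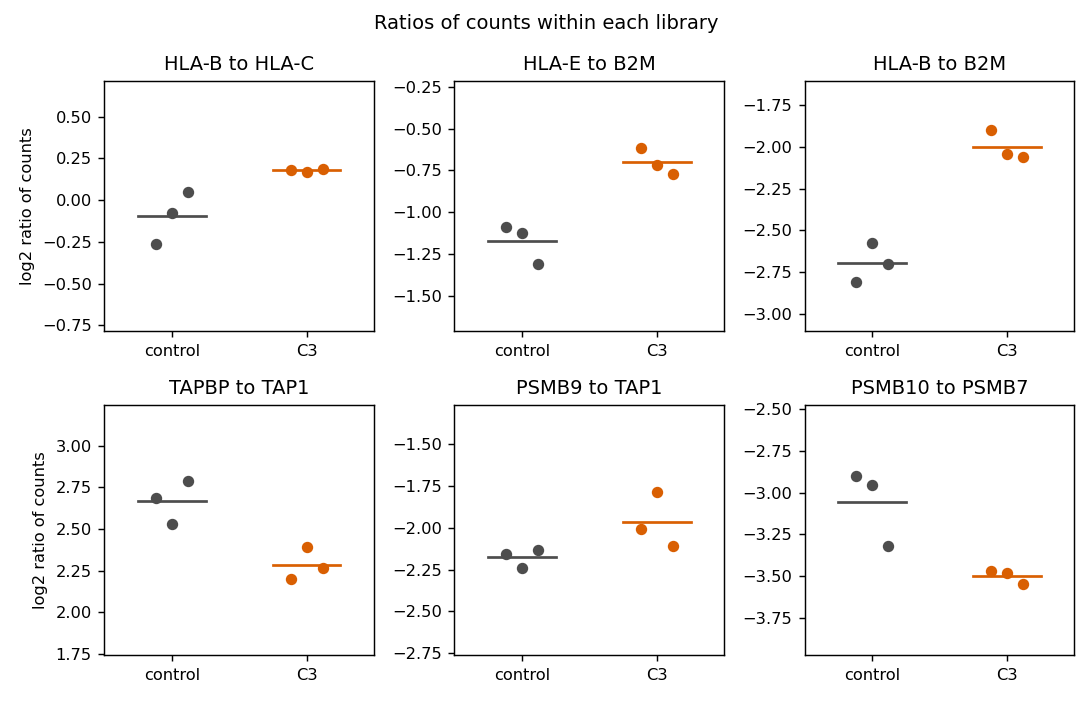
Log2 ratio of counts of gene pairs within each library, 3 control (grey) and 3 C3 (orange) libraries, with group means as lines. The axes do not start at 0, and all span the same height on the log2 scale around a centre set for each panel. In the panels of HLA-B and of HLA-E to B2M, C3 points lie above control points, and in the panels of TAPBP to TAP1 and PSMB10 to PSMB7 they lie below.

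The light chain B2M, needed by every classical and most non-classical heavy chains to reach the surface, was at 9099.7, 9133.4 and 10043.1 normalised counts in control and 8349.5, 8251.6 and 8450.5 in C3 libraries. All C3 libraries were below all control libraries, and control replicate 3 was the highest. The means were 9425 ± 535 and 8351 ± 99.4 (SD, n = 3 each), a log2 fold change of -0.17 (SE 0.063, 95% interval -0.30 to -0.045). The edgeR adjusted p of 0.0504 just missed the threshold of 0.05. B2M passed it in 5 of 14 alternatives, among them leaving out C3 replicate 1 (adjusted p = 0.0246), and its log2 fold change ran from -0.20 to -0.10. Within libraries, the log2 ratio of HLA-B to B2M was -2.81, -2.58 and -2.70 in control and -1.90, -2.04 and -2.06 in C3 libraries. That of HLA-E to B2M differed by 0.47 between groups, and both ratios were chosen after their values were seen (exact two-sided permutation p = 0.1 for each). HLA-B and HLA-E counts relative to the light chain were higher in every C3 library than in any control library.

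The TAP transporter is built from TAP1 and TAP2, which form a heterodimer. TAP1 was at 612.3, 660.6 and 575.5 normalised counts in control and 663.5, 583.8 and 602.3 in C3 libraries, and the groups overlapped throughout. The means were 616 ± 42.7 and 617 ± 41.8 (SD, n = 3 each), with a log2 fold change of -0.003 (95% interval -0.17 to 0.16, adjusted p = 0.986). TAP2 was at 608.3, 579 and 613.7 in control and 565.7, 610.6 and 607.8 in C3 libraries, again with overlap. Its log2 fold change was -0.012 (95% interval -0.17 to 0.15, adjusted p = 0.938). The intervals leave room for changes of about the size seen for B2M, and both genes passed the test in 0 of 14 alternatives.

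TAPBP, or tapasin, bridges the transporter and the empty heavy chain in the peptide loading complex. It was at 3936.1, 3806.9 and 3973.8 normalised counts in control and 3052.5, 3063.5 and 2899.2 in C3 libraries. The groups were far apart relative to their spread. The mean fell from 3906 ± 87.5 to 3005 ± 91.9 (SD, n = 3 each), to 0.769 of control, with a log2 fold change of -0.38 (SE 0.061, 95% interval -0.50 to -0.25, adjusted p = 7e-05). That value lies on the 1.3-fold gate without passing it, and TAPBP passed both gates under 6 of 14 alternatives and the test under all 14. The log2 ratio of TAPBP to TAP1, chosen after the values were seen, was 2.53 to 2.79 in control and 2.20 to 2.39 in C3 libraries.

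PSMB9, the inducible catalytic subunit that takes the place of PSMB6 in the immunoproteasome, was the least counted of the 9 genes. It was at 137.1, 140 and 131.3 normalised counts in control and 165, 169.4 and 139.6 in C3 libraries. C3 replicate 3 lay within the control range and the other two C3 libraries were above it. The log2 fold change of 0.21 had a wide interval (SE 0.133, 95% interval -0.068 to 0.48, adjusted p = 0.303). Relative to PSMB6 in the same library, PSMB9 differed by 0.36 on the log2 scale, from a ratio of -4.81 ± 0.00928 in control to -4.45 ± 0.243 in C3 libraries. All C3 ratios were higher (exact two-sided permutation p = 0.1). The ratio to TAP1, its neighbour on the opposite strand, differed by 0.21 (exact two-sided permutation p = 0.1), with C3 libraries above control libraries. C3 replicate 2 was the highest for both ratios, and without it the differences were 0.227 and 0.118.

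NLRC5, the class I co-activator, was at 327.2, 331.9 and 284.2 normalised counts in control and 360.8, 343.6 and 352.9 in C3 libraries. Every C3 library was above every control library, but by little. The means were 314 ± 26.3 and 352 ± 8.62 (SD, n = 3 each), with a log2 fold change of 0.16 (SE 0.095, 95% interval -0.035 to 0.36, adjusted p = 0.256). NLRC5 passed the test in 0 of 14 alternatives, with log2 fold changes of 0.085 to 0.23, and was at 0.097 without control replicate 3.

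**Figure D2:**
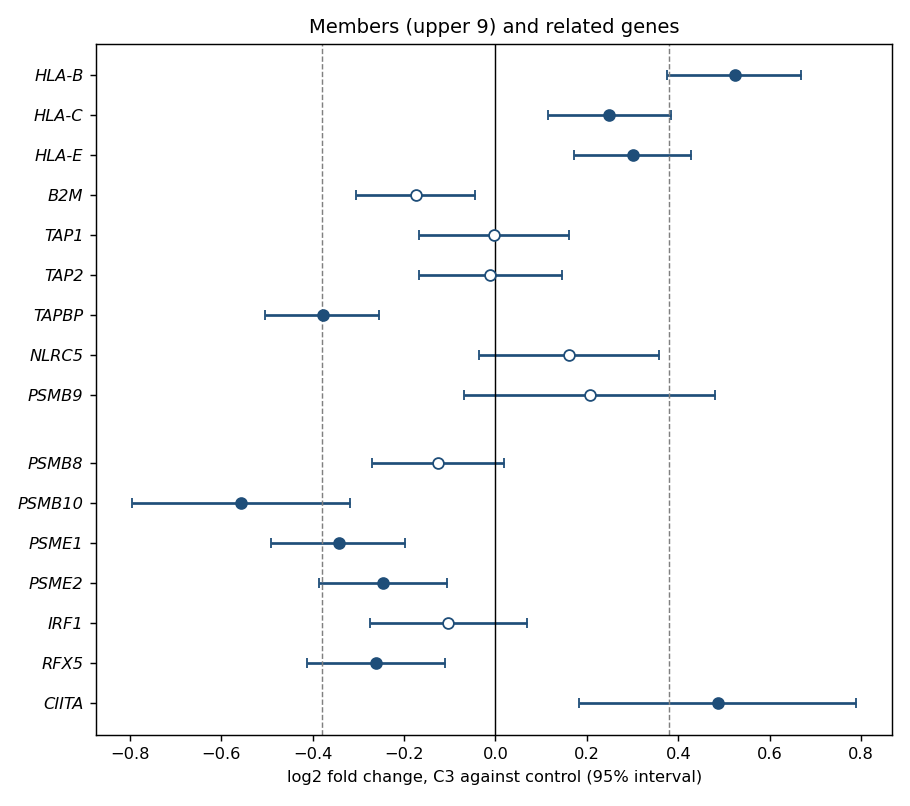
Log2 fold change of C3 against control with its 95% interval for the 9 genes (top) and 7 related genes, with filled points for an adjusted p below 0.05 and dashed lines at the 1.3-fold gate. HLA-B alone of the 9 genes lies past the gate, and TAPBP lies on it.

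Levels of different genes were compared as CPM per kilobase of merged exons. In control libraries B2M was the highest at 162 ± 9.20, followed by HLA-E at 76.6 ± 2.07, HLA-C at 33.2 ± 1.32 and TAPBP at 31.5 ± 0.706. HLA-C and TAPBP were within their spread of each other. HLA-B followed at 16.9 ± 1.6, then TAP1 at 6.98 ± 0.483, TAP2 at 3.11 ± 0.0969, PSMB9 at 2.19 ± 0.0707 and NLRC5 at 1.36 ± 0.114. After C3, HLA-E stood at 94.3 ± 4.85, HLA-C at 39.5 ± 2.36 and HLA-B at 24.3 ± 1.5, level with TAPBP at 24.3 ± 0.741. The order depended on the length used, both in the middle and at the lower end. Per kilobase of the canonical transcript, chosen as a second length after the data were seen, HLA-B was at 50.9 ± 4.81 in control, next to HLA-C at 54.0 ± 2.14 and within its spread. TAPBP, at 60.7 ± 1.36 in control by this length, was above HLA-C by more than their spread. On that scale HLA-B was at 73.0 ± 4.51, HLA-C at 64.2 ± 3.83 and TAPBP at 46.7 ± 1.43 in C3 libraries. In control libraries PSMB9 was at 7.18 ± 0.232 and thus above TAP2 at 5.71 ± 0.178, the reverse of their order per merged exons.

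Reads of some members can be shared with other annotated genes, and the strand setting of the counting is not given in the sources used here. Of HLA-B exon bases, 32.7% overlap a gene on the same strand and 14.8% a gene on the opposite strand. The overlapping genes had at most 1 count in any library. How reads in shared bases were assigned is not given, so low counts of an overlapping gene do not measure the sharing. TAP1 exons overlap PSMB8-AS1 on the opposite strand over 14.2% of their bases, and that gene had 12 to 31 counts. In TAP2, 19.5% of exon bases lie in a readthrough gene that had 0 counts in every library. In TAPBP, 21.0% of exon bases overlap an opposite-strand gene, for which no counts were at hand. PSMB9 exons overlap PSMB8 and PSMB8-AS1 over 5.21% of their bases on the same strand and 4.16% on the opposite strand, and PSMB8 had 1209 to 1705 counts where PSMB9 had 110 to 178. Stretches of 75 bases of the canonical transcript that also occur in other genes made up 1.98% of HLA-C, 2.30% of HLA-E and 15.0% of HLA-B. The share was 19.6% of TAP1, 35% of TAP2 and 39.2% of TAPBP, nearly all with the overlapping genes described above, and 0% of B2M, NLRC5 and PSMB9. HLA genes are highly polymorphic, and the effect of the alleles of Meg-01 on mapping was not tested.

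Other genes of the pathway were read from lists chosen with earlier results of these data known. Of 11 other class I and class I-like chains, 10 were tested, 1 rose and 1 fell (10% each, beside 11% and 8.77% of all tested genes), with a median log2 fold change of 0.25. With a mean count of at least 50, 8 were tested, with a median of 0.109. Under that filter, with library size alone or without C3 replicate 1, 2 rose and 1 fell. FCGRT, the neonatal Fc receptor chain that also pairs with B2M, rose 1.17-fold (adjusted p = 0.0222), a call lost without control replicate 1, control replicate 3 or C3 replicate 3 (adjusted p = 0.0503 to 0.0686) and with DESeq2 (adjusted p = 0.0539). MR1, which presents vitamin B metabolites to MAIT cells, fell from 407 ± 17.8 to 309.5 ± 7.82 normalised counts (adjusted p = 0.00259) and passed both DEG gates, as it did in 10 of 14 alternatives. It missed them without control replicate 1 (adjusted p = 0.0117), control replicate 2 (adjusted p = 0.0276) or C3 replicate 3 (adjusted p = 0.024) and with library size alone (adjusted p = 0.0161). Of 12 genes of peptide loading and trimming, 1 rose (8.33%) and 0 fell, with a median of -0.006. With library size alone 3 rose and 0 fell, and without C3 replicate 1, 2 rose and 2 fell. Leaving out control replicate 3 and C3 replicate 1 together, 5 rose and 2 fell. UGGT1, the glucosyltransferase that checks the folding of glycoproteins, rose 1.16-fold (adjusted p = 0.0213), but did not pass without control replicate 3 (adjusted p = 0.0844) or C3 replicate 3 (adjusted p = 0.143). The chaperones CALR, CANX and PDIA3 had adjusted p-values of 0.952, 0.353 and 0.577.

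Among 10 further proteasome subunits and activators, 0 rose and 3 fell, with a median log2 fold change of -0.14. Of all tested genes 11% rose and 8.77% fell. All 10 values were below 0, beside 7483 of the 15078 tested genes. With library size alone as the scaling, 8 of the 10 were below 0 and the median was -0.066. Without C3 replicate 1, 6 fell, and without C3 replicate 2 the median was -0.089. Without control replicate 3 and C3 replicate 1 together, 1 rose and 7 fell. PSMB10, the inducible counterpart of PSMB7, was at 313.5, 310.7 and 241.2 normalised counts in control and 208.3, 193.3 and 190.6 in C3 libraries. It fell to 0.680 of control (log2 fold change -0.56, SE 0.116, adjusted p = 0.00117), a DEG here and in 11 of 14 alternatives. It missed the gate on p without control replicate 1 (adjusted p = 0.0177), control replicate 2 (adjusted p = 0.0125) or C3 replicate 3 (adjusted p = 0.0106). Its log2 ratio to PSMB7 differed by -0.44 (exact two-sided permutation p = 0.1). PSME1 and PSME2, which form the PA28 activator, fell to 0.788 (adjusted p = 0.00116) and 0.844 (adjusted p = 0.012) of control. PSME2 did not pass without control replicate 1 (adjusted p = 0.0631) or C3 replicate 2 (adjusted p = 0.0914), or with library size alone (adjusted p = 0.0896), where 2 genes of the list fell. PSMB8, the counterpart of PSMB5, had a log2 fold change of -0.13 (adjusted p = 0.221) and PSMB6 of -0.15 (adjusted p = 0.142). Both passed the test without C3 replicate 1 (adjusted p = 0.0236 and 0.0064), and without C3 replicate 2 they were at -0.06 and -0.066 (adjusted p = 0.676 and 0.619). The PSMB8 to PSMB5 ratio differed by 0.038 (exact two-sided permutation p = 0.7). Of the 3 inducible subunits, PSMB10 fell, and neither PSMB9 nor PSMB8 passed the test.

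Of 22 upstream factors and interferon-gamma signalling genes, 21 were tested, 0 rose and 2 fell, with a median of -0.052 that was 0.019 with library size alone and -0.023 without control replicate 1. The 9.52% that fell are close to the 8.77% of all tested genes, of which 11% rose. RFX5, a DNA-binding subunit of the factor that occupies class I and class II promoters, fell to 0.834 (adjusted p = 0.0125). NFKB1, an NF-kappa B subunit, fell to 0.848 (adjusted p = 0.0144). IRF1, which binds interferon response elements, had a log2 fold change of -0.10 (adjusted p = 0.434). The calls of RFX5 and NFKB1 were lost without control replicate 1 (adjusted p = 0.0615 and 0.0662) or control replicate 2 (adjusted p = 0.0649 and 0.0566). RFX5 was also lost without C3 replicate 2 (adjusted p = 0.0849) and NFKB1 without C3 replicate 3 (adjusted p = 0.11). With library size alone 1 gene of the list rose and 0 fell. Without control replicate 3, 1 rose and 2 fell. Without C3 replicate 1, or with the replicate block, 1 rose and 3 fell. Without control replicate 3 and C3 replicate 1 together, 2 rose and 5 fell.

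In HLA class II presentation, 8 of 14 genes were tested, 2 rose (25%) and 1 fell (12.5%), beside 11% and 8.77% of all tested genes. The median of 0.074 was 0.148 with library size alone, 0.124 without control replicate 3 and 0.049 without control replicate 1. CIITA, the class II counterpart of NLRC5, was at 123.4, 100.7 and 89.6 normalised counts in control and 152.5, 150.3 and 140.4 in C3 libraries. It rose 1.40-fold (adjusted p = 0.0202), a call kept in 9 of 14 alternatives and lost without control replicate 2, control replicate 3 or C3 replicate 2 (adjusted p = 0.0528 to 0.085). HLA-DMA, part of the class II peptide editor, rose 1.59-fold from 91.5 ± 11.2 to 147 ± 23.6 normalised counts (adjusted p = 0.00349). CTSS, cathepsin S, which trims the invariant chain, fell to 0.828 (adjusted p = 0.00983), a call lost with library size alone (adjusted p = 0.0868), where 3 genes of the list rose and 0 fell. With DESeq2 the call of CIITA was lost (adjusted p = 0.0717).

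Of 33 interferon-stimulated genes, 29 were tested, 3 rose and 4 fell, with a median of -0.01. That is 10.3% higher and 13.8% lower, beside 11% and 8.77% of all tested genes. BST2, or tetherin, rose 2.33-fold from 148 ± 18.1 to 342 ± 20.7 normalised counts (adjusted p = 3.05e-08). ISG20, an exonuclease, rose 1.94-fold (adjusted p = 0.000772) and IFI6 1.42-fold (adjusted p = 0.0039). IFI35 fell to 0.524 (adjusted p = 0.00489), the ISG15 protease USP18 to 0.742 (adjusted p = 0.00317), ISG15 itself to 0.776 (adjusted p = 0.00321) and GBP4 to a log2 fold change of -0.22 (adjusted p = 0.014). Calls thus went in both directions. With library size alone 6 rose and 3 fell, with a median of 0.062 and GBP4 lost (adjusted p = 0.116). Without C3 replicate 3, 2 rather than 4 fell, with ISG15 (adjusted p = 0.0621) and GBP4 (adjusted p = 0.0689) lost, and GBP4 was also lost without control replicate 1 (adjusted p = 0.0664) or 2 (adjusted p = 0.064).

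**Figure D3:**
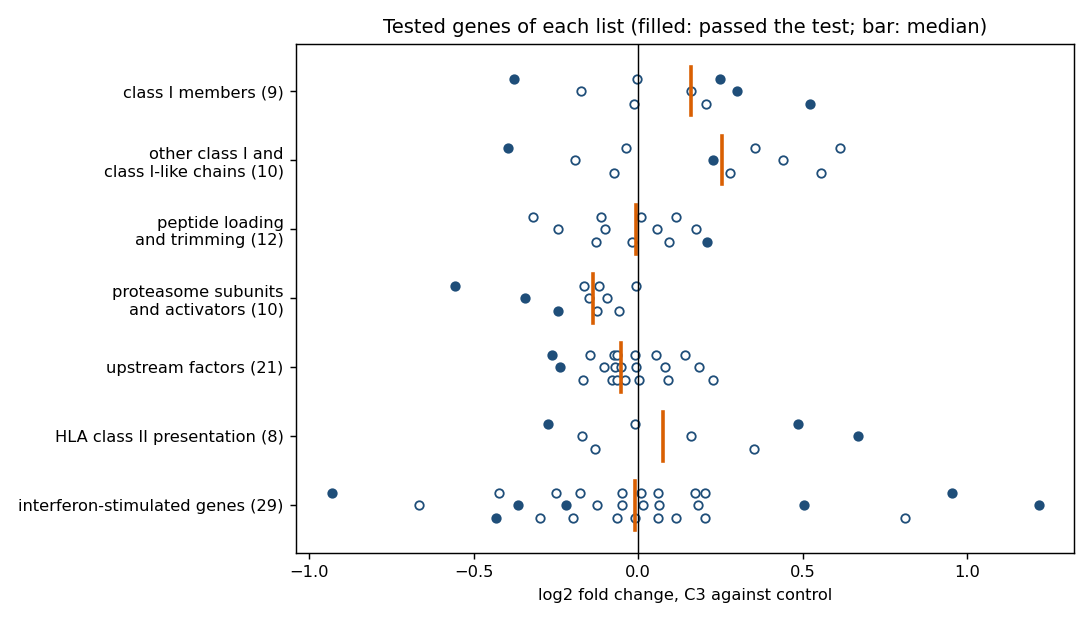
Log2 fold change of C3 against control for the tested genes of each list, with filled points for an adjusted p below 0.05 and an orange bar at the median. The 9 class I genes hold 3 filled points above 0 and 1 below, and all 10 points of the proteasome list lie below 0 (8 with library size alone).

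The genes most like HLA-B over the 6 libraries, by Pearson correlation of log2 CPM among 11850 tested genes with a mean of at least 50 normalised counts, were GDF3 (r = 0.999), CD44 (r = 0.993) and IGDCC3 (r = 0.991). GDF3 is a ligand of the TGF-beta family, CD44 a receptor for hyaluronan and IGDCC3 a cell surface protein of the immunoglobulin superfamily. Both groups are in these 6 libraries, so a gene that differs between the groups correlates with HLA-B, and no test is given.

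Library totals were 16159449 to 22821722 counts. Over all genes 761 passed both gates higher and 222 lower, and with library size alone 1024 and 101. Of 14 megakaryocyte markers, 12 were tested, with ITGA2B, the platelet fibrinogen receptor chain, at 12900 ± 390 and the transcription factor GATA1 at 1818 ± 54.8 normalised counts in control libraries, while PF4 and GP1BB had 0 counts throughout. Of the 12, 3 fell after C3 (GP1BA to 0.710 of control, edgeR adjusted p = 2.17e-06, NFE2 to 0.770, adjusted p = 0.000189, and TUBB1 to 0.391, adjusted p = 0.00253) and ITGB3 rose 1.27-fold (adjusted p = 0.0325). That is 25% lower and 8.33% higher, beside 8.77% and 11% of all tested genes. The sum of the list was 28290 to 29540 in control and 26280 to 28350 in C3 libraries. Of 5 monocyte markers 2 were tested, with sums of 689 to 718 and 528 to 547, for the most part LYZ, which fell to 0.703 of control (adjusted p = 4.65e-05), and with CD163 and FCGR3A at 0. LYZ is 50% of the 2 tested, beside 8.77% lower among all tested genes. Of 8 erythroid markers 6 were tested, with sums of 423 to 442 and 384 to 453, and ALAS2 rose (adjusted p = 0.0372) and HBA2 fell (adjusted p = 0.0244). Each is 16.7% of the 6, beside 11% higher and 8.77% lower of all tested genes. Of 6 T and NK cell markers 2 were tested (sums of 158 to 195 and 188 to 273, KLRD1 at 0), of 4 B cell markers 2 (64.7 to 79.4 and 64.3 to 88.8, MS4A1 at 0) and of 3 dendritic cell markers 1 (88.4 to 101 and 55.7 to 80.8). NKG7 made up most of the T and NK sums, at 164 ± 13.3 in control and 213 ± 43 in C3 libraries (adjusted p = 0.0537). CD79A made up most of the B cell sums, at 65.9 ± 12.6 and 63.5 ± 12.1. FLT3, the tested dendritic marker, was at 85.6 ± 6.96 and 61.2 ± 9.66 (adjusted p = 0.0554). CSF1R, the other tested monocyte marker, was at 85.2 ± 10.6 and 102 ± 5.01 (adjusted p = 0.277). The part of all these markers in the class I results was not tested. In bulk RNA, fewer cells of a type and less RNA per cell cannot be told apart.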

How the data were processed

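RNA of Meg-01 cells was sequenced in 3 control and 3 C3 libraries prepared with a NEBNext Ultra RNA kit. Per the submitters' processing notes, the authors cleaned reads with fastp, aligned them by STAR (2.6.1d) against GRCh38/hg38 and assigned them to genes by featureCounts (1.5.0-p3). The deposited values are raw counts of 58735 Ensembl genes. For the annotation release and the strand, the setting was not given in the sources used here. Symbols came from GENCODE release 44 for 58207 identifiers.

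A gene was tested if it reached 10 counts in 3 or more libraries (15078 genes, 99.87% of counts). The quasi-likelihood test of edgeR (version 4.0.16 under R 4.3.3) compared C3 with control, using TMM factors, Benjamini-Hochberg adjustment over all tested genes and no replicate block, and was read at 0.05. Standard errors were obtained as the size of the log2 fold change over the square root of F. Normalised counts are counts divided by effective library size, times its mean. Library totals were 16159449 to 22821722, and beyond counting error libraries of a group varied by 6.21% (CV). Single ratios had exact two-sided permutation tests. The script was tested on simulated data.

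The members and gene lists were chosen with earlier results of these data known, and some genes are not reported here. Named genes were all members, 6 preset pathway genes, every pathway list gene that passed, and the 3 genes most correlated with HLA-B. HLA-F, HLA-G, PSMB5, PSMB7, the chaperones, markers and other genes of the MHC region were named in addition, after their values were seen. Alternatives were DESeq2 (1.42.0), RLE factors, library size alone, no filter, limma-voom (limma 3.58.1), genes with a mean count of 50 or more, a replicate block, each library left out, and, added after the data were seen, leaving out control replicate 3 and C3 replicate 1 together.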

Additional observations from a re-analysis of the deposited data

How the results depend on the processing

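The directions of HLA-B, HLA-C, HLA-E, B2M, TAPBP, NLRC5 and PSMB9 held under all 14 alternatives, and HLA-B, HLA-C, HLA-E and TAPBP stayed past an adjusted p of 0.05 in each. B2M, which missed that threshold, passed it with DESeq2 (-0.183), RLE factors (-0.178), limma-voom (-0.173), and without C3 replicate 1 (adjusted p = 0.0246). It ran from -0.196 to -0.126 with single libraries left out. The near-zero values changed sign. TAP1 was at 0.07 with library size alone, 0.007 without the filter, 0.01 with a mean count of at least 50, 0.001 with the replicate block and between -0.053 and 0.051 with single libraries left out. TAP2 was at 0.063 with library size alone, 0.002 with a mean count of at least 50 and between -0.037 and 0.024 with single libraries left out. The difference in the log2 ratio of PSMB8 to PSMB5 ran from -0.01, without C3 replicate 1, to 0.066. Without control replicate 3 and C3 replicate 1 together, added after the data were seen, B2M was at -0.122 (adjusted p = 0.0118), TAP1 at -0.096 and TAP2 at 0.04.

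Over all genes, the count of those called lower by both gates, 222, was 101 with library size alone, 129 without C3 replicate 3, 340 without C3 replicate 1 and 396 without control replicate 3 and C3 replicate 1 together. The count called higher, 761, ran from 516 to 766 with single libraries left out. At an adjusted p below 0.05 at any fold, 1658 were higher and 1323 lower. Library size alone moved the median of all genes to 0.076. Replicate numbers did not pair the libraries, since same-numbered libraries correlated at 0.021, -0.047 and 0.030. With the replicate block, HLA-B was at 0.524 and TAPBP at -0.378, and 909 genes were called higher and 268 lower. The causes were not tested. PSMB9 and NLRC5 have the fewest counts of the 9 genes and the widest intervals.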

Other observations

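Genes that share the MHC region with the class I genes were read after the results above were known. Between HLA-F and TAPBP (chr6:29722775-33314284), 101 tested genes other than the 7 of the 9 class I genes that lie there held 7 that rose (6.93%) and 13 that fell (12.9%), with a median log2 fold change of -0.024. The shares over all tested genes were 11% and 8.77%. DDR1, a collagen receptor kinase, rose 1.77-fold, from 83.6 ± 15.1 to 148 ± 21.1 normalised counts (SD, n = 3 each, edgeR adjusted p = 0.000661). TNXB, an extracellular matrix protein, rose 1.48-fold (edgeR adjusted p = 0.00468), and MDC1, a DNA damage checkpoint protein, 1.29-fold (edgeR adjusted p = 0.000242). TCF19 fell to 0.770 of control (edgeR adjusted p = 0.000292). RNF5, a ubiquitin ligase of the endoplasmic reticulum, fell to 0.800 (edgeR adjusted p = 0.000488), and the chloride channel protein CLIC1 to 0.839 (edgeR adjusted p = 0.00952).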
